A study of Mus musculus with 9 samples.

Results

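The genes described here are 10 genes of the podosome and the actin ring: Src, Cttn, Ptk2b, Scin, Gsn, Pxn, Tln1, Vcl, Cbl and Tks5. They form a list drawn up with earlier results of these data known, and were found by matching their names to the gene name column of the deposited table, where 9 of the 10 were present among 28379 genes. Tks5 is not a symbol in that table. The same gene is listed as Sh3pxd2a, so its values are given beside the members and left out of their counts.

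RNA sequencing was done on bone marrow-derived macrophages (BMDMs), the precursors from which osteoclasts form in culture, taken from adult C57BL/6J mice. There were 3 groups of 3 libraries, and every group received macrophage colony-stimulating factor (M-CSF) at 20 ng/ml for 48 h. The PBS group received the vehicle alone, the RANKL group received the osteoclast-inducing cytokine RANKL at 100 ng/ml, and the RANKL+VitD+K group received the same RANKL with vitamin D at 1000 nM and vitamin K at 20 µM. The vitamin K dose is that of the sample labels, and the methods of the study give a higher one. No group received vitamins without RANKL, or 1 of the vitamins alone, so the effects of the vitamins cannot be separated from each other. The methods speak of pooled RNA without saying how many mice or cultures stand behind a library, so the p-values measure the spread between these libraries, which may be technical.

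Podosomes are short-lived adhesions of macrophages and osteoclasts, built of an actin core surrounded by a ring of integrins and plaque proteins. In a resorbing osteoclast they pack into a belt, the actin ring or sealing zone, which closes off the bone surface beneath the cell. SRC kinase, with the kinase PYK2 and the adaptor and ubiquitin ligase CBL, controls the assembly and turnover of podosomes, while cortactin and TKS5 organise the core, gelsolin and scinderin cut and cap actin filaments, and talin, vinculin and paxillin form the ring that ties integrins to actin.

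Total counts per library lay between 65915112 and 68229647, so depth was close to equal. The 9 osteoclast marker genes, which include Acp5 and Ctsk, summed to 22.9 to 30.4 FPKM (fragments per length of transcript, scaled to the depth of the library) in the PBS libraries, 487 to 1018 in the RANKL libraries and 58.2 to 93.1 in the RANKL+VitD+K libraries. The last sum was mostly Ctsk and Atp6v0d2 (means of 38.7 and 24.4 FPKM, against 9.51 and 3.64 with PBS), and Mmp9 (3.92 against 0.273), Dcstamp (0.433 against 0.0157) and Ocstamp (0.0403 against 0.0194) were also above PBS on average. Mean Acp5 (3.48 against 4.20), Nfatc1 (6.78 against 9.46) and Oscar (0.0210 against 0.0217) were not, and Calcr was at 0 in both groups. The 8 macrophage markers summed to 27200 to 31450, 17260 to 25090 and 4837 to 12030 FPKM in the same order, but most of each sum was Lyz2 (means of 26730, 19800 and 6069 FPKM). The means of 6 of the 8, such as Csf1r (964, 544 and 183 FPKM), followed that order, namely Adgre1, Csf1r, Lyz2, Mertk, Fcgr1 and Tyrobp, whereas Cd68 averaged 504, 552 and 718 FPKM and Itgam 158, 234 and 169. Neutrophil markers were at 11.1 to 128 FPKM with PBS, 11.3 to 148 with RANKL and 0.551 to 1.72 with the vitamins. The 8 fibroblast or stromal markers summed to 0.219 to 0.666, 0.432 to 0.533 and 0.0257 to 0.120 FPKM in the same order. The 4 dendritic cell markers summed to 0.130 to 0.458, 0.418 to 0.464 and 0.0162 to 0.0639 FPKM. The 4 endothelial markers were highest with the vitamins, at 0.423 to 0.682, 0.657 to 1.02 and 1.41 to 3.18 FPKM. Kdr carried that rise (means of 0.304, 0.629 and 2.24 FPKM). In these bulk libraries a smaller number of cells of a type and less RNA per cell cannot be told apart, and the part of these marker shifts in the results below was not tested.

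Of the 9 members, 4 were higher with RANKL than with PBS (Src, Scin, Cttn and Vcl) and none was lower by edgeR's quasi-likelihood test, at a Benjamini-Hochberg adjusted p under 0.05 over 17002 genes. At an unadjusted p under 0.05, 1 member was lower (Ptk2b). The background was 2.35% of all genes tested called higher and 1.26% called lower. With the vitamins added to RANKL, 4 of 9 were lower (Src, Scin, Cttn and Pxn) and none was higher, also at an unadjusted p under 0.05, against 17.2% of all genes lower and 16.4% higher. DESeq2 called the same members in both comparisons. Between the vitamin group and PBS, 2 members were higher (Src and Vcl) and 1 was lower (Pxn), against 19.8% and 21% of all genes. The median log2 fold change over the 9 members was 0.16 for RANKL against PBS, -0.50 for the vitamins against RANKL and 0.03 for the vitamins against PBS, while the median of all genes was -0.04 in each. The comparisons share libraries, so they are not independent of each other.

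**Figure D1:**
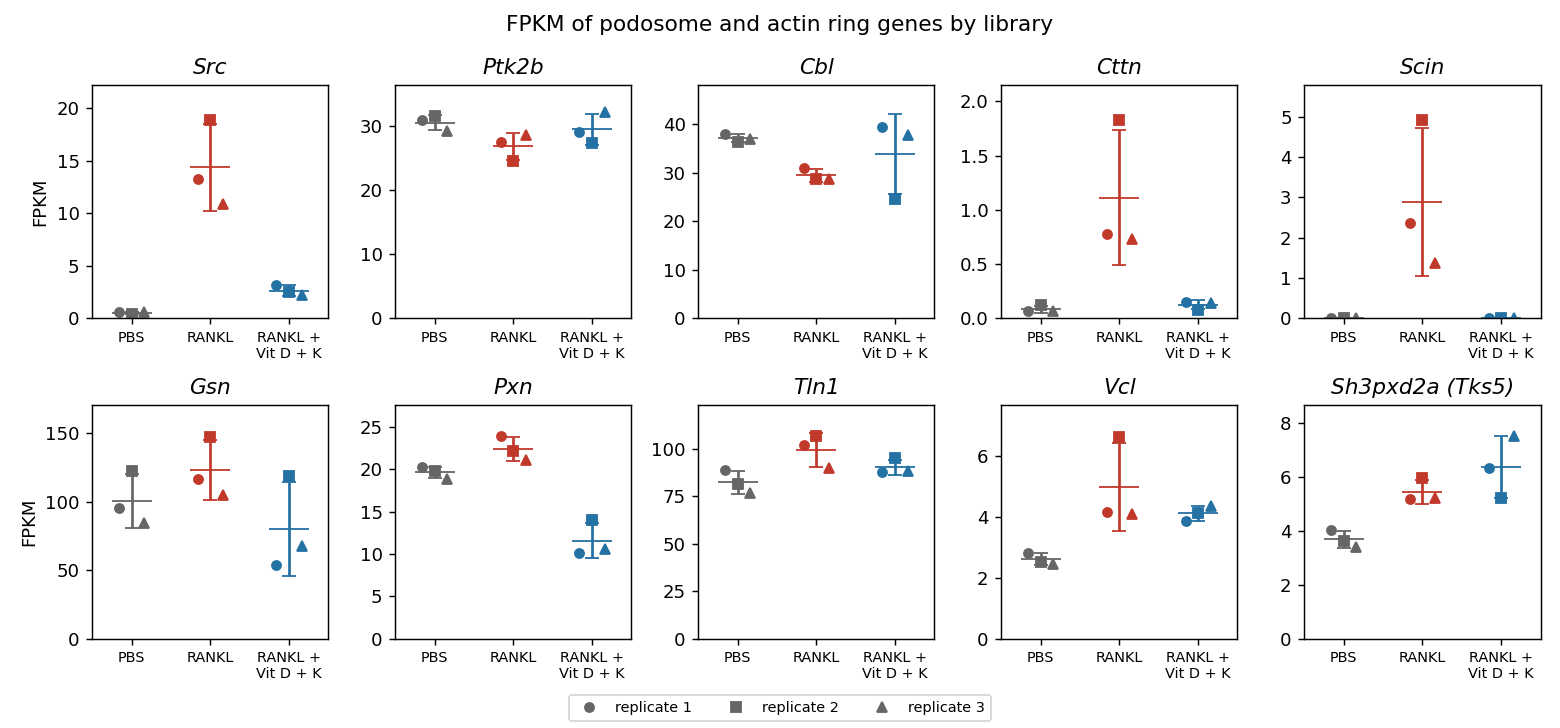
FPKM (y axes, from 0) of the 9 members and Sh3pxd2a in each of the 9 libraries, by group on the x axes; horizontal bars are group means and error bars are SDs over 3 libraries. Src, Cttn and Scin stood highest in all 3 RANKL libraries, Pxn was lowest in the 3 libraries with vitamins, and no comparison of Tln1, Gsn, Cbl or Ptk2b passed the test.

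Src and Scin were the members with the largest increases under RANKL, so the stretch before a transcript start of each gene is shown. Both fell with the vitamins, but Src stayed above PBS, whereas Scin was near 0 as with PBS. The 250 bases upstream of the start, 5′ to 3′ on the strand of the gene, were taken from RefSeq for GRCm38.p6, where 6 of the 9 members had an entry. For Src this is a transcript start that lies inside the gene's coordinates in the deposited table, and for Gsn 1 of its 3 entries was used. Capitals mark a match to a searched motif.
Src, chr2:157424043-157424292, plus strand: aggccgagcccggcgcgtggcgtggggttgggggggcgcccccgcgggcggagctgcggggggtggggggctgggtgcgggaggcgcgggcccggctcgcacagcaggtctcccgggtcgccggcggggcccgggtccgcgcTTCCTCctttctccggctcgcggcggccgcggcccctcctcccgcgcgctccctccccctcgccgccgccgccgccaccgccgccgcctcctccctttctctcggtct
Scin, chr12:40134229-40134478, minus strand: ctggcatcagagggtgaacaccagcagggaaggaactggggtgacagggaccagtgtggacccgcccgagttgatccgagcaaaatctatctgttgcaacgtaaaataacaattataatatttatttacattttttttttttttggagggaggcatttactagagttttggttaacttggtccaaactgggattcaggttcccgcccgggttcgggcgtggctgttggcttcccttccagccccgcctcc

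The letters of the Src stretch were 82.8% G or C, and those of the Scin stretch 49.2%, against a median of 52.4% over 32851 such stretches. Motifs were searched on both strands as fixed letters. They were the NFAT core GGAAA, found in 55.6% of all stretches, the AP-1 motif TGANTCA in 6.75%, the PU.1 core GAGGAA in 23.3%, the MITF E-box CACGTG in 6.02%, and a vitamin D element of the DR3 type, 2 copies of AGGTCA with any 3 bases between them, in 0.00609%. The Src stretch held 1 PU.1 core, on the minus strand from 108 to 103 bases before the start, and the Scin stretch held none of the 5. Of the other 4 members with an entry, Gsn had 1 NFAT core, Tln1 had 1 PU.1 core, Cbl had 3 NFAT cores and 1 PU.1 core, and Vcl had no match. No AP-1 motif, E-box or DR3 element was matched in the stretches used for the 6. A match is only a match of letters, and a stretch without one says nothing about the factor.

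The kinase axis of the podosome was led by Src. Src (ENSMUSG00000027646, chr2:157418444-157471838, plus strand) encodes the tyrosine kinase without which osteoclasts form but do not make a ruffled border or resorb bone. Its level was 0.600, 0.444 and 0.595 FPKM in PBS replicates 1 to 3, 13.3, 18.9 and 10.9 in the RANKL replicates, and 3.20, 2.53 and 2.19 in the RANKL+VitD+K replicates. The 3 groups did not overlap, and the vitamin group lay between the others. Group means were 0.546 ± 0.0885, 14.4 ± 4.10 and 2.64 ± 0.516 FPKM (SD, n = 3 each), a 26.3-fold higher level with RANKL than with PBS and a 5.44-fold lower level with the vitamins than with RANKL alone. By edgeR RANKL raised Src over PBS by 4.57 ± 0.271 on the log2 scale (SE, adjusted p = 0.00013) and the vitamins against RANKL gave -2.27 ± 0.243 (adjusted p = 0.000613). The vitamin group remained above PBS by 2.30 ± 0.248 (adjusted p = 0.000373). These 3 calls were kept in all 18 alternative fits.

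Ptk2b and Cbl, whose products act with SRC at the podosome, did not pass the test in any comparison. Ptk2b (ENSMUSG00000059456, chr14:66153257-66281052, minus strand), which encodes the kinase PYK2, was at 30.9, 31.5 and 29.2 FPKM with PBS, 27.5, 24.5 and 28.6 with RANKL and 29.0, 27.4 and 32.2 with the vitamins. The RANKL libraries lay below all PBS libraries, and the vitamin group overlapped both. The log2 difference was -0.31 ± 0.135 for RANKL against PBS (edgeR adjusted p = 0.268), with an interval of ±2 SE from -0.58 to -0.03, and 0.29 ± 0.135 for the vitamins against RANKL (adjusted p = 0.132). Without vitamin replicate 2 the latter was 0.40 (adjusted p = 0.0139).

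Cbl (ENSMUSG00000034342, chr9:44142976-44234049, minus strand) encodes the ubiquitin ligase that SRC phosphorylates. It was at 38.1, 36.4 and 36.9 FPKM with PBS, 31.0, 28.8 and 28.7 with RANKL and 39.4, 24.5 and 37.7 with the vitamins. All RANKL libraries were below the PBS libraries. In the vitamin group replicate 2 was lower than every other library, while replicates 1 and 3 were within or above the PBS range. The log2 difference was -0.46 ± 0.208 for RANKL against PBS (edgeR adjusted p = 0.281) and 0.37 for the vitamins against RANKL, and neither passed the test. With only the PBS and RANKL libraries in the fit the former was -0.41 (adjusted p = 0.0205). Without vitamin replicate 2 both differences passed, at -0.46 (adjusted p = 0.0133) and 0.61 (adjusted p = 0.000751).

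Scin showed the widest contrast among the actin-binding members. Scin (ENSMUSG00000002565, chr12:40059769-40134228, minus strand) encodes scinderin, also called adseverin, a calcium-dependent protein that severs and caps actin filaments. Its counts were 0, 4 and 0 in the PBS libraries, 532, 1102 and 319 in the RANKL libraries and 4, 0 and 0 in the libraries with vitamins. The PBS libraries and those with vitamins were thus at or near 0, and RANKL replicate 2 was the highest library. In FPKM the RANKL libraries were at 2.37, 4.92 and 1.37, and no other library exceeded 0.0167.

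Summed over the 3 libraries and scaled to the library totals, Scin was 481 times as frequent with RANKL as with PBS (exact 95% interval 188 to 1767) and 485 times as frequent as with RANKL and vitamins (189 to 1782). These intervals cover counting error only, and a count may not be 1 independent read, because the value 4 was 2.22 times as common in the table as its neighbours 3 and 5 on average. The first ratio was 314 without RANKL replicate 2, 322 without PBS replicate 1 or 3, and at least 425 without PBS replicate 2, which held all 4 counts of its group (against a floor of 3 counts over the group). The second was 316 without RANKL replicate 2, 321 and 326 without vitamin replicate 2 or 3, and at least 431 without vitamin replicate 1. By edgeR the change was significant in both directions (adjusted p = 0.00648 and 0.00123). Between the vitamin group and PBS, each with 4 counts in all, a difference was not detectable at this depth.

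Cttn (ENSMUSG00000031078, chr7:144435733-144471009, minus strand), which encodes cortactin, a SRC substrate that stabilises branched actin, followed the same order at a low level. It was at 0.0659, 0.121 and 0.0659 FPKM with PBS, 0.779, 1.83 and 0.730 with RANKL and 0.153, 0.0814 and 0.146 with the vitamins. The RANKL libraries did not overlap with the others, whereas the PBS and vitamin libraries did. These levels came from 21 to 40 counts per PBS library, 241 to 576 per RANKL library and 28 to 49 per vitamin library. Mean Cttn was 13.2-fold higher with RANKL than with PBS and 8.78-fold lower with the vitamins than with RANKL. The log2 fold changes were 3.53 ± 0.495 (edgeR adjusted p = 0.00853) and -2.90 ± 0.479 (adjusted p = 0.00301), and that between the vitamin group and PBS was 0.64 ± 0.468 (adjusted p = 0.306). The increase with RANKL missed the threshold without PBS replicate 1 (adjusted p = 0.0516) or PBS replicate 3 (adjusted p = 0.0523).

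Gsn (ENSMUSG00000026879, chr2:35256380-35307892, plus strand), which encodes gelsolin, the severing protein of podosome cores, was at 95.04, 122.1 and 84.1 FPKM with PBS, 116.8, 147.1 and 104.5 with RANKL and 53.4, 118.6 and 67.8 with the vitamins. All 3 groups overlapped. Replicate 2 was the highest library in each group. The log2 difference was 0.16 ± 0.230 for RANKL against PBS and -0.50 ± 0.231 for the vitamins against RANKL, with edgeR adjusted p-values of 0.775 and 0.126. Without vitamin replicate 2 the latter was -0.80 (adjusted p = 0.0047) and the difference of the vitamins from PBS -0.64 (adjusted p = 0.013).

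Sh3pxd2a, which encodes the scaffold TKS5 (chr19:47260174-47464401, minus strand), was at 4.04, 3.61 and 3.41 FPKM with PBS, 5.19, 5.98 and 5.22 with RANKL and 6.33, 5.23 and 7.53 with the vitamins. Both RANKL groups lay above PBS in every library and overlapped each other. RANKL against PBS gave 0.44 ± 0.168 on the log2 scale (edgeR adjusted p = 0.201), the vitamins against RANKL 0.38 (adjusted p = 0.107) and the vitamins against PBS 0.82 ± 0.169 (adjusted p = 0.00508). Without vitamin replicate 2 the first and second also passed, at 0.44 (adjusted p = 0.0215) and 0.56 (adjusted p = 0.00195).

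Of the plaque genes, Pxn was lower with the vitamins than in both other groups, and Vcl was higher than PBS in both groups that received RANKL. Pxn (ENSMUSG00000029528, chr5:115506676-115555987, plus strand) encodes paxillin, a scaffold for SRC and the focal adhesion kinases. It was at 20.2, 19.8 and 18.9 FPKM with PBS, 23.9, 22.1 and 21.04 with RANKL and 10.2, 14.0 and 10.5 with the vitamins. All libraries with vitamins were below all others. The mean with the vitamins was 0.518 times that with RANKL. The log2 fold change was -0.81 ± 0.108 against RANKL (edgeR adjusted p = 0.00127) and -0.75 ± 0.108 against PBS (adjusted p = 0.00105), and these calls were kept in all 18 alternative fits. RANKL against PBS gave 0.06 ± 0.107 (adjusted p = 0.817), with an interval of ±2 SE from -0.15 to 0.28.

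Vcl (ENSMUSG00000021823, chr14:20929398-21033676, plus strand) encodes vinculin, which links talin to actin under tension. It was at 2.82, 2.53 and 2.45 FPKM with PBS, 4.17, 6.64 and 4.11 with RANKL and 3.87, 4.14 and 4.37 with the vitamins. Both RANKL groups were above PBS in every library and overlapped each other. RANKL against PBS gave a log2 fold change of 0.80 ± 0.172 (edgeR adjusted p = 0.0403) and 0.69 ± 0.171 for the vitamins against PBS (adjusted p = 0.0120). With the vitamins against RANKL it was -0.11 ± 0.170 (adjusted p = 0.662), with an interval of ±2 SE from -0.45 to 0.23.

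The increase of Vcl with RANKL was close to the threshold. It was 0.79 with adjusted p = 0.0602 when the replicate number was added as a block, since same-numbered PBS and RANKL libraries deviated together. The adjusted p was 0.106, 0.102 and 0.155 without PBS replicate 1, 2 or 3, 0.0683, 0.0829 and 0.0582 without RANKL replicate 1, 2 or 3, 0.0605 without vitamin replicate 3 and 0.0514 with no filter on low counts. The change was 0.58 without RANKL replicate 2 and at least 0.79 in the other fits just named. The exons of Vcl overlap those of Ap3m1 on the opposite strand, and whether counting used the strand is not stated, so reads of the overlap cannot be told apart.

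Tln1 (ENSMUSG00000028465, chr4:43531519-43562691, minus strand), which encodes talin 1, the activator of integrins, did not pass the test in any comparison. It was at 88.5, 81.2 and 76.9 FPKM with PBS, 101.7, 106.6 and 89.5 with RANKL and 87.6, 94.8 and 87.9 with the vitamins. The RANKL libraries were all above the PBS libraries by a small margin, and the vitamin group overlapped both. The log2 difference was 0.15 ± 0.103 for RANKL against PBS (edgeR adjusted p = 0.509) and 0.01 for the vitamins against RANKL (adjusted p = 0.951), with intervals of ±2 SE from -0.06 to 0.35 and from -0.20 to 0.22. The exons of Tln1 overlap those of Creb3 on the opposite strand.

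**Figure D2:**
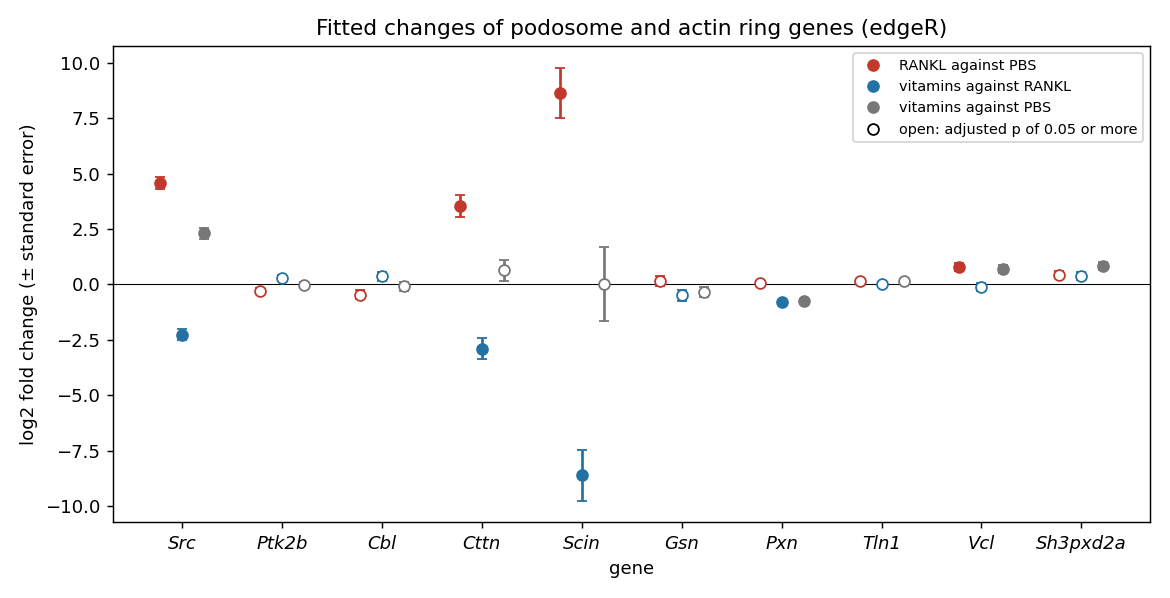
Log2 fold change (y axis) of the 9 members and Sh3pxd2a (x axis) in the 3 comparisons, fitted by edgeR, with standard errors as error bars; filled points had an adjusted p under 0.05. Src, Cttn and Scin rose with RANKL and fell when vitamins were added, and Pxn passed the test in the 2 comparisons of the vitamin group; the fitted values of Scin rest on 4 counts in each of the 2 lower groups.

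Levels per length in the PBS libraries differed widely between members. Gsn and Tln1 had mean levels of 100.4 ± 19.5 and 82.2 ± 5.88 FPKM, Cbl, Ptk2b and Pxn 19.6 to 37.1 FPKM and Vcl 2.60 FPKM, while Src, Cttn and Scin were below 1 FPKM. The 3 members with the largest log2 decreases with the vitamins were thus those with the lowest PBS levels. RANKL replicate 2 was the highest RANKL library for 6 of the 9 members, including Src, Scin, Cttn and Vcl, and it also had the highest summed osteoclast markers (1018 FPKM, against 658 and 487 in replicates 1 and 3). The part of this library in the results is given by the fits without it, in which the calls of Src, Scin and Cttn were kept and that of Vcl with RANKL was lost (adjusted p = 0.0829).

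Members can stand in for a close relative, so most were set beside the other genes of their family by their share of the summed FPKM. With 3 libraries a group, no p under 0.1 can come from an exact permutation test, so the shares are a description.

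Cttn was a minor partner throughout: it made up 0.0758% of the FPKM of Cttn and Hcls1 with PBS, 0.997% with RANKL and 0.251% with the vitamins, and the rest was Hcls1, the haematopoietic relative of cortactin. Hcls1 itself was lower with the vitamins, by -0.81 against RANKL (edgeR adjusted p = 0.0141) and -1.04 against PBS (adjusted p = 0.00383). The first call was lost without RANKL replicate 1 or vitamin replicate 3. The share of Cttn with the vitamins thus moved with both genes. Ptk2b made up 96.6%, 94.2% and 91.8% of its pair with Ptk2, the gene of focal adhesion kinase. In the gelsolin family Capg, which caps but does not sever, had the largest share at 60.7%, 64.9% and 71.0%, Gsn had 25.3%, 24.0% and 17.9%, and Scin reached 0.547% ± 0.296 with RANKL. Flii had 11.7%, 9.29% and 9.86%, Svil 2.28%, 1.20% and 1.20%, and Vil1 and Avil under 0.05% each. The large increase of Scin thus left it a small part of the family.

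The paxillin and CBL families differed in make-up between the libraries with vitamins and all others. Pxn was 33.9% ± 4.07 of the FPKM of Pxn, Lpxn and Tgfb1i1 with PBS, 34.2% ± 3.12 with RANKL and 17.1% ± 0.223 with the vitamins, and the share of Lpxn, which encodes the leukocyte relative leupaxin, was 65.9%, 65.7% and 82.9%. As shares of CPM (counts scaled to the library alone), the share of Pxn was 71.2%, 71.6% and 50.3%, so which of the pair is more abundant depends on the scale while the lower share with vitamins does not. Cbl was 90.8% ± 1.32 of the FPKM of Cbl and Cblb with PBS, 89.5% ± 0.583 with RANKL and 60.7% ± 5.90 with the vitamins. This came with a rise of Cblb, which encodes a related ligase: 3.61, 4.34 and 3.29 FPKM with PBS, 3.40, 3.57 and 3.42 with RANKL and 31.2, 11.9 and 26.2 with the vitamins. The log2 fold change of Cblb for the vitamins against RANKL was 2.92 ± 0.351 (edgeR adjusted p = 0.000901). Tln1 made up 99.99%, 99.97% and 99.96% of the FPKM of Tln1 and Tln2, and Sh3pxd2a 13.4%, 18.9% and 16.7% of the pair with Sh3pxd2b.

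**Figure D3:**
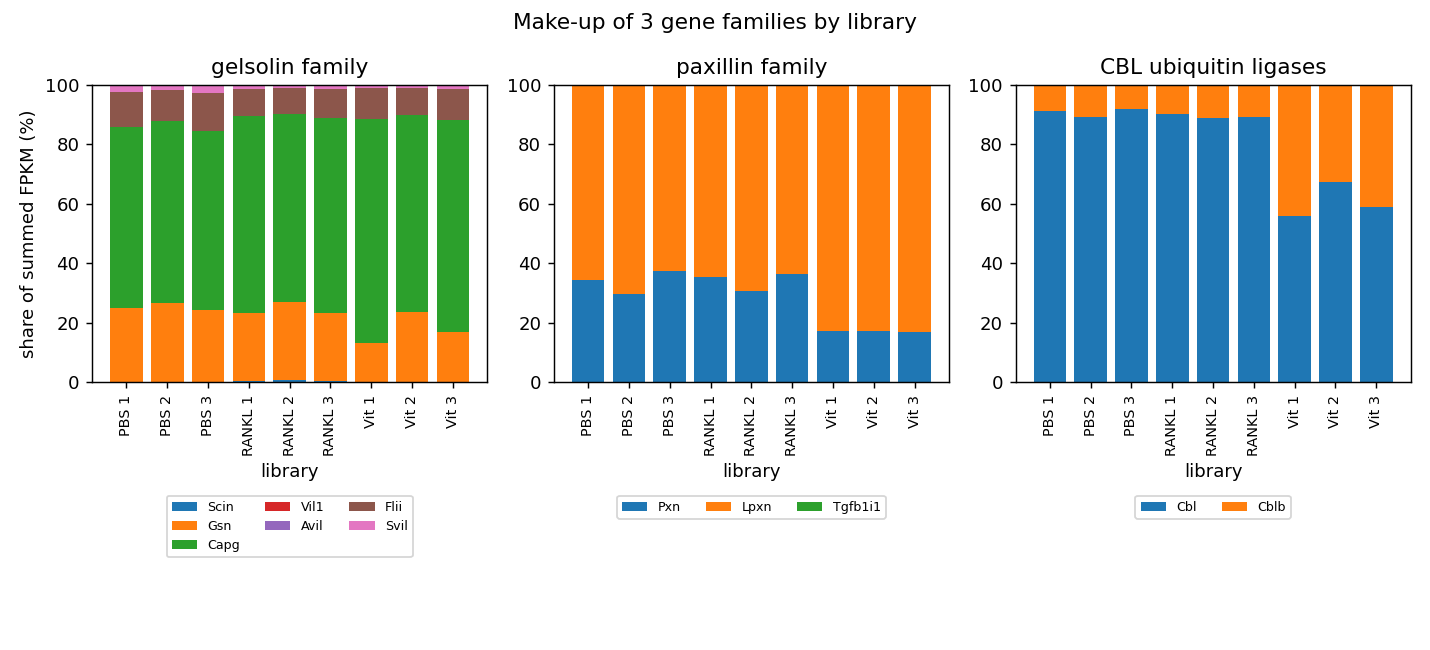
Share of summed FPKM (y axes, percent) of each gene in 3 families, as stacked bars for each of the 9 libraries (x axes; Vit is RANKL+VitD+K). Lpxn and Cblb took larger shares in the 3 libraries with vitamins than in any other library, least so for Cblb in replicate 2, and Scin is a thin band at the base of the RANKL bars.

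The other genes of the podosome were taken from a list of 97 genes, of which 96 were tested. Sh3pxd2a, already given beside the members, is also in this list, in the actin core role. It is counted there among the genes higher with the vitamins than with PBS. With RANKL 10 were higher than with PBS and 1 was lower, 17 rose and 31 fell with the vitamins against RANKL, and in the vitamin group 30 exceeded and 29 fell below the PBS level. Over all genes tested the shares called higher and lower were 2.35% and 1.26%, 16.4% and 17.2%, and 19.8% and 21% in the same order. The number of calls for RANKL against PBS depended on the fit, from 11 in the list and 614 over all genes. It was 1 and 126 without PBS replicate 3, and 33 and 3006 by limma-voom with quality weights. The medians of the list were 0.09, -0.06 and 0.08 on the log2 scale, and that of all genes was -0.04 in each comparison.

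The 10 genes higher with RANKL came from 6 of the 8 roles by which the list is grouped. They included the adaptors Bcar1 and Actn1, the kinases Fgr and Ptk2, the myosins Myo10 and Myo1e, Sh3kbp1, which encodes a CBL partner, and Mmp14, the gene of a membrane-bound collagenase. Fgr was at 5.57, 3.52 and 3.11 FPKM with PBS and 31.4, 33.3 and 23.1 with RANKL, a log2 fold change of 2.71 ± 0.404 (edgeR adjusted p = 0.0103). Myo10, which encodes an unconventional myosin of filopodia and podosomes, was at 1.19, 1.29 and 1.10 FPKM with PBS and 6.89, 9.97 and 5.87 with RANKL (log2 fold change 2.53 ± 0.178, adjusted p = 0.000339). Neither gene overlapped between these groups. Bcar1, the gene of the SRC substrate p130Cas, had 4 counts in PBS replicate 2, none in the other PBS libraries and 260 in the RANKL libraries, 64.0 times as many after scaling to the library totals (exact 95% interval 24.7 to 237, for counting error only). The ratio was 42.8 without PBS replicate 1, 42.9 without PBS replicate 3 and at least 56.5 without PBS replicate 2.

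Svil, the gene of supervillin, was the single gene lower with RANKL, at -0.68 ± 0.124 (edgeR adjusted p = 0.0217). Itgb3 was not called by edgeR in this comparison (adjusted p = 0.176), although it lay above PBS in all RANKL libraries and was called by DESeq2 (0.0323), with quality weights (0.0393), with only the 2 groups in the fit (0.0271) and without vitamin replicate 2 (0.0213). Several of the calls made were close to the threshold. The calls of Mmp14, Ptk2 and Svil were lost without any 1 of the 6 PBS and RANKL libraries, with adjusted p-values of 0.0724 to 0.168, 0.0874 to 0.144 and 0.0524 to 0.117, and that of Ptk2 also without vitamin replicate 3 (0.068), with no filter (0.0509) and by limma on log2(FPKM + 0.1) and log2(FPKM + 1) (0.103 and 0.108). With no filter that of Mmp14 was lost too (0.0692). The call of Bcar1 was lost without any 1 of these 6 but PBS replicate 2 (0.0593 to 0.0899), and that of Fgr without PBS replicate 3 (0.0619). With the replicate block the adjusted p was 0.0631 for Mmp14 and 0.0583 for Ptk2. The call of Myo10 was kept in all 18 alternatives.

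With the vitamins, 13 of 22 genes of the actin core were not called against RANKL, 8 were lower, among them Was, Arpc1b, Arpc4, Coro1a, Lsp1 and Mmp14, and 1 was higher, where 17.2% of all genes were lower and 16.4% higher. Mmp14 was at 23.0, 21.6 and 19.7 FPKM with RANKL and 0.916, 2.11 and 0.849 with the vitamins, a log2 fold change of -3.94 ± 0.365 (edgeR adjusted p = 0.000362). Of 12 kinases and phosphatases, against the same background, 6 were lower, including Fgr at -2.09 ± 0.394 (adjusted p = 0.00502; vitamin libraries at 3.42, 11.5 and 4.29 FPKM, and -2.70 without the second of them), Csk, which encodes the kinase that restrains Src family members, and Ptpn6, the gene of the phosphatase SHP-1, and 3 were higher, including Fyn. Fyn was at 4.36, 7.26 and 5.43 FPKM with RANKL and 22.2, 16.8 and 23.5 with the vitamins, higher by 2.04 ± 0.223 on the log2 scale (adjusted p = 0.000665). The vitamin and RANKL libraries did not overlap for Mmp14, Fgr or Fyn.

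Adhesion genes were called in both directions, as were all genes (16.4% higher and 17.2% lower). Of 8 integrin and matrix receptor genes 3 were higher with the vitamins than with RANKL (Itgb3, Itgb1 and Cd44) and 1 was lower (Itga4), and of 17 plaque adaptors tested 5 were higher and 6 lower. Itgb3, the gene of the β3 subunit of the vitronectin receptor that dominates osteoclast podosomes, was at 0.937, 1.40 and 0.726 FPKM with PBS, 2.60, 4.65 and 2.26 with RANKL and 18.5, 3.83 and 12.3 with the vitamins. The vitamin libraries overlapped with RANKL through replicate 2 and lay above all PBS libraries. Its log2 fold change was 2.08 ± 0.547 against RANKL (edgeR adjusted p = 0.0186) and 3.58 ± 0.584 against PBS (adjusted p = 0.00178). Against RANKL the adjusted p was 0.0723, 0.0713, 0.0677 and 0.0546 without RANKL replicate 1, RANKL replicate 3, vitamin replicate 1 or vitamin replicate 3. Itga4, the gene of the α4 integrin, was at 33.7, 31.9 and 36.3 FPKM with RANKL and 5.74, 15.9 and 8.87 with the vitamins, a log2 change of -1.63 ± 0.263 (adjusted p = 0.00273).

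At low levels, Tgfb1i1, which encodes the paxillin relative HIC-5, averaged 0.0938 FPKM with RANKL and 0.00706 with the vitamins, a log2 change of -3.48 ± 0.952 (edgeR adjusted p = 0.0217), and Bcar1 fell from 0.251 to 0.0319 FPKM (-2.80 ± 0.880, adjusted p = 0.0366). The adjusted p of Tgfb1i1 was 0.0629 without vitamin replicate 3 and 0.073 without RANKL replicate 3, and by limma it was 0.0649 on log2(FPKM + 0.1) and 0.18 on log2(FPKM + 1). That of Bcar1 was 0.122, 0.0734 and 0.0841 without RANKL replicate 1, 2 or 3, 0.0751 and 0.11 without vitamin replicate 1 or 3, and 0.058 with no filter. Bcar1 was 8.43 times as frequent with the vitamins as with PBS (exact 95% interval 3.01 to 32.7, for counting error only), from 34 and 4 counts, and 5.64 times without PBS replicate 1 or 3. Its edgeR call against PBS (adjusted p = 0.0475) was lost in 11 of 17 alternatives, in which the adjusted p reached 0.439.

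**Figure D4:**
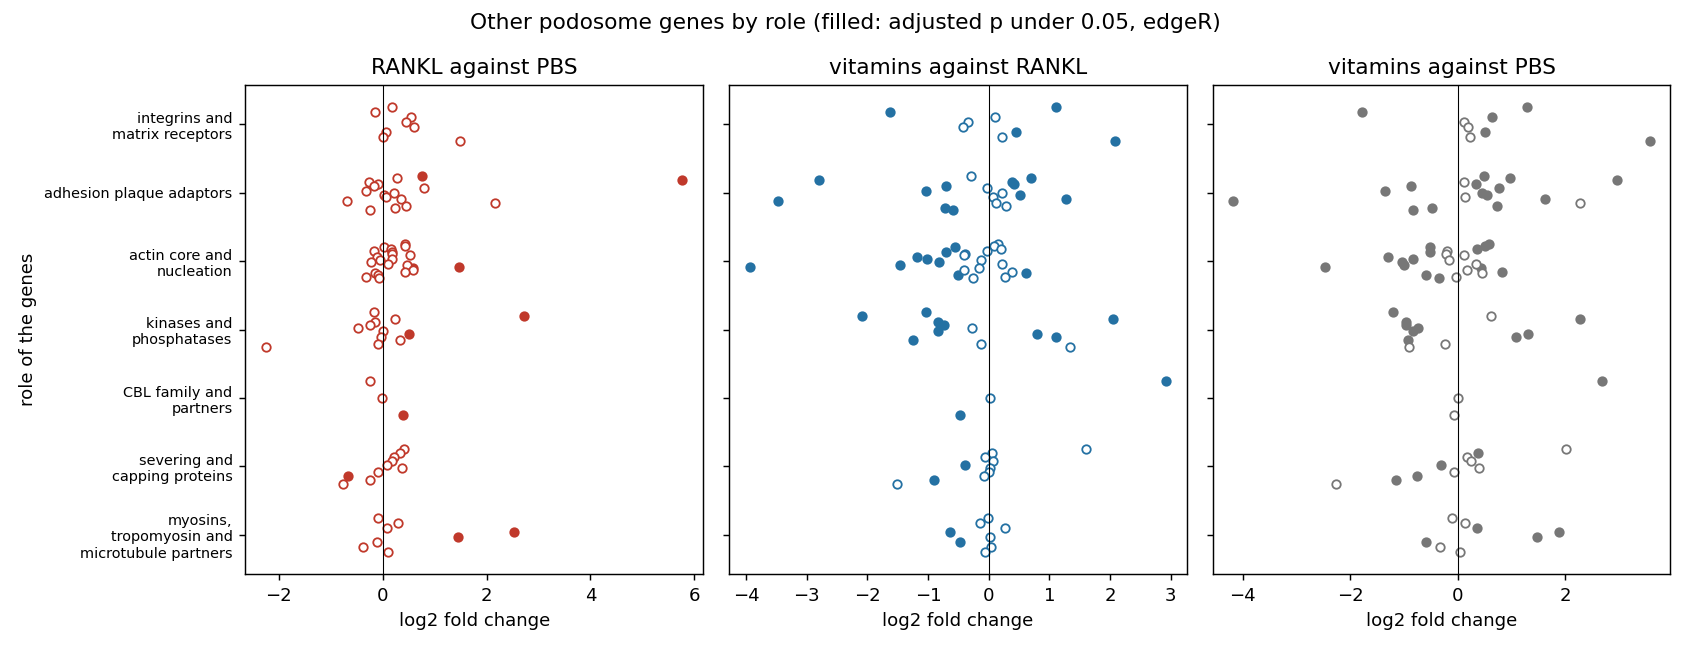
Log2 fold change (x axes) of 80 of the 96 podosome genes of the longer list tested, by role (y axis, 7 of the 8 roles), in the 3 comparisons. Sh3pxd2a is among them. Each point is a gene and filled points had an edgeR adjusted p under 0.05. Over all 96 genes 11 passed with RANKL, against 48 for the vitamins against RANKL and 59 for the vitamins against PBS, and in these last 2 comparisons genes lay on both sides of 0 in most roles.

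The genes whose pattern over the 9 libraries was most like that of a member were found by Pearson's r of log2 CPM, among genes with a mean of at least 1 on that scale. For Src they were Acsl1 (r = 0.988), Ctsk (0.975) and Mmp9 (0.974), and the latter pair encodes the main secreted proteases of the osteoclast. Ctsk averaged 9.51 FPKM with PBS, 297 with RANKL and 38.7 with the vitamins, and Mmp9 0.273, 138 and 3.92 FPKM, the same order as Src. For Cttn they were Sdha (0.974), Dstn (0.968) and Psmd10 (0.956), and for Scin they were Sh3kbp1 (0.988), Sdha (0.975) and Psmd10 (0.970). Dstn encodes destrin, an actin-depolymerising factor. The 9 libraries form 3 groups and RANKL replicate 2 stands high in many of these genes, so the correlations are a description.

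In the pathway annotation carried by the table, 4 members (Src, Pxn, Tln1 and Vcl) were listed under focal adhesion and 5 (Src, Scin, Gsn, Pxn and Vcl) under regulation of the actin cytoskeleton. None of the 9 was listed under osteoclast differentiation.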

How the data were processed

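The members and lists were chosen with earlier results of these data known. Poly(A)-selected RNA of 9 libraries was sequenced, and the authors deposited 1 table of raw counts per gene with FPKM values, which the authors scaled to transcript length and library. The submitters' processing notes name cutadapt 1.9, HISAT2 2.0.4, StringTie 1.3.4d, edgeR and hg38, without roles, and hg38 is not a mouse build. The coordinates of 87.2% of 28294 genes were identical to GENCODE M21 on GRCm38, including all members but Src, and the table's coordinates are given. Strand use and the treatment of reads shared by related genes are not given in the sources used here.

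Groups and replicate numbers came from the labels. Counts were filtered (filterByExpr), normalized by TMM and compared by edgeR's quasi-likelihood test (edgeR 4.0.16, R 4.3.3) in 1 model of 9 libraries, with Benjamini-Hochberg adjustment over 17002 genes and a threshold of 0.05. The SE is the log2 fold change divided by the square root of F. The test was checked on simulated counts for RANKL against PBS, with 200 genes changed. It called 30% of the 2-fold and 76% of the 4-fold changes, with 7 false calls. DESeq2 called 53% and 88%, with 55 false calls. A change of 2-fold or less that did not pass may thus have been missed. Named were every member, the genes of its family (but for the family of Src), the 3 largest changes of the longer list per direction and comparison, and the 3 genes most correlated with each member that changed by at least 1 (log2); other listed genes were named after their values were seen, and some genes and 1 role of the list are not reported here.

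Same-numbered PBS and RANKL libraries deviated together weakly (r = 0.122, 0.219 and 0.155), and no r of different-numbered libraries was computed. The labels give the replicate numbers without saying what they share. The main fit used the group alone, so its p-values leave any pairing out. With the replicate block as an alternative, 3 members instead of 4 were called for RANKL against PBS. For the vitamin libraries r lay from -0.0216 to 0.107. Alternatives were DESeq2 1.42.0, median-of-ratios scaling, 2 other filters, limma 3.58.1 on log2(FPKM + 0.1) and log2(FPKM + 1), voom quality weights, 2 groups only, the replicate block and each library left out. Promoter sequences are from RefSeq (GRCm38.p6).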

Additional observations from a re-analysis of the deposited data

How the results depend on the processing

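Over 99 fitted log2 fold changes and 18 alternatives, 1612 kept their side of the threshold, 101 fell short of it, 53 passed it, and no called change reversed; of the 1612, 50 changed sign, none of them called. For RANKL against PBS, members called numbered 4, and 2 to 5 with 1 library left out (2 without PBS replicate 1 or 3). The longer list gave 11, 21 with DESeq2, 7 with no filter, 33 with quality weights, 21 with only the 2 groups, and 1 (without PBS replicate 3) to 23 (without vitamin replicate 2). All genes gave 614, 1699 with DESeq2, 3006 with quality weights, 1736 with only the 2 groups, and 126 to 1903 without the same libraries. For the vitamins against RANKL, members called numbered 4, 7 with quality weights, and 4 to 7 with 1 library left out (7 without vitamin replicate 2, adding Gsn, Cbl and Ptk2b). The longer list gave 48 and 26 (without vitamin replicate 3) to 61. All genes gave 5725, 10698 with quality weights and 3199 (without RANKL replicate 1) to 8259. For the vitamins against PBS, the longer list gave 59 and 37 (without PBS replicate 1) to 63, members 3 to 4, and all genes 6932, 10899 with quality weights and 4766 to 8868. The cause was not tested.

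With the replicate block 3, 5 and 3 members were called in the 3 comparisons, against 4, 4 and 3. Vcl was lost (RANKL against PBS) and Gsn gained for the vitamins against RANKL (-0.53, edgeR adjusted p = 0.0274). In the latter comparison the r of same-numbered libraries did not exceed 0.107. Limma on log2(FPKM + 0.1) moved the median of all genes for the vitamins against RANKL from -0.04 to -0.16, and the share of calls that were higher from 48.8% to 35.6% (36.8% with log2(FPKM + 1)). Low counts limit Scin, Cttn and Bcar1.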
